A study of Mus musculus with 88 samples.

Results

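Purine nucleotides are built on ribose phosphate in a chain of reactions that ends in inosine monophosphate (IMP), and IMP is then turned into GMP or AMP. In that chain Ppat carries out the first committed step, Gart, Pfas and Paics the middle steps, and Adsl and Atic the last ones. IMP dehydrogenase, made as the isozymes Impdh1 and Impdh2, takes the first and rate-limiting step towards GMP and Gmps completes it, while Adss and then Adsl lead to AMP. Impdh2 is known as the isozyme of dividing cells, and Impdh1 as the form most tissues hold at a low, steady level.

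These 10 proteins were chosen by gene name, each as the protein group whose first listed gene name is the enzyme, and all 10 were present among the 5899 protein groups kept. They were proposed with the M/L, H/L and H/M ratios of these LPS and mock runs in view, so their LPS minus mock differences are given as a description, with a standard error and no test. Bone marrow of female C57BL/6J mice was grown with GM-CSF into dendritic cells, which were stimulated with lipopolysaccharide (LPS, a bacterial wall component, 100 ng/ml) or given a mock stimulus. The culture medium carried medium-labelled amino acids (M) until 0 h and heavy-labelled ones (H) from then on, and the cells were pooled before stimulation. Pre-existing protein is therefore read from M and new protein from H. Each lysate was mixed with unlabelled cells (L) as a common standard. The groups used are LPS at 10 times from 0.5 to 24 h, mock at the same 10 times, and unstimulated cells at 0 h, 2 replicates each, which makes 21 groups and 42 trypsin runs. Cells at 0 h were also digested with AspN and with LysN, 2 unlabelled samples each. All groups share the strain, the sex and the GM-CSF culture. The study's text describes harvests up to 12 h, and the sources used here say nothing on the handling of the 24 h samples. The make-up of the unlabelled standard is also not stated.

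The number of M/L peptide pairs per run was between 68083 and 109064. Of 12 dendritic cell markers 8 were listed, among them Itgax, H2-Aa, H2-Ab1, Cd74, Cd40 and Fscn1 with M/L in all 42 runs, while Cd80, Ccr7, Zbtb46 and Flt3 were not listed. None of 8 lymphocyte markers was listed (0 of 8). Macrophage and granulocyte proteins were present (8 of 11 and 10 of 10 listed). In such a bulk lysate fewer cells of a type and less protein per cell cannot be told apart.

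Values are ratios divided by a factor for each run, set so that the median total protein is about 1. They compare samples for the same protein, not 1 protein with another. At 0 h, when no heavy label could yet be built in, the median protein still showed 14.2% and 13.1% H of its M plus H signal in the 2 replicates, and that share is the background of every H value. At 24 h the median protein had a scaled M/L of 0.654 and 0.657 in LPS cells, against 0.708 and 0.705 in mock cells.

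Levels at 0 h were compared by iBAQ, which is the summed intensity per possible peptide and is given here as ppm of a sample's total. Atic, which carries out the last steps to IMP, was the most abundant of the 10 in each of the 3 digests, with 484 and 447.7 ppm in the trypsin samples, 448.8 and 503 ppm with AspN and 459.4 and 512.9 ppm with LysN. Impdh2 averaged 127.5 ± 14.2 ppm with trypsin, 155.5 ± 8.45 with AspN and 265 ± 46.9 with LysN (SD, n = 2 each). Paics averaged 193 ± 65.2, 174.6 ± 3.46 and 214.8 ± 6.8 ppm in the same order of digests (SD, n = 2 each). Both Paics samples lay above both Impdh2 samples with trypsin and AspN and below them with LysN, so the order of these neighbours differed between digests. Gart averaged 105 ± 25.2, 95.7 ± 28.2 and 205 ± 27.9 ppm. With LysN 2 protein groups bore its name, and the value is that of the group with more unique peptides.

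At the low end stood Impdh1 and Ppat. Impdh1 had 2.26 ppm in 1 trypsin sample and was listed at 0 in the other, had 3.71 and 0.785 ppm with AspN, and 2.95 ppm and a listing at 0 with LysN. Ppat had 3.41 and 4.95 ppm with trypsin, 10.6 and 4.96 ppm with LysN, and no iBAQ row with AspN. The remaining 4 lay between, Adss at 86.6 ± 17.8, Adsl at 47.1 ± 0.337, Gmps at 37.4 ± 10.01 and Pfas at 27.1 ± 12.4 ppm in trypsin, where the replicate ranges of Gmps and Pfas overlapped. The plot of iBAQ by digest shows this order.

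**Figure D1:**
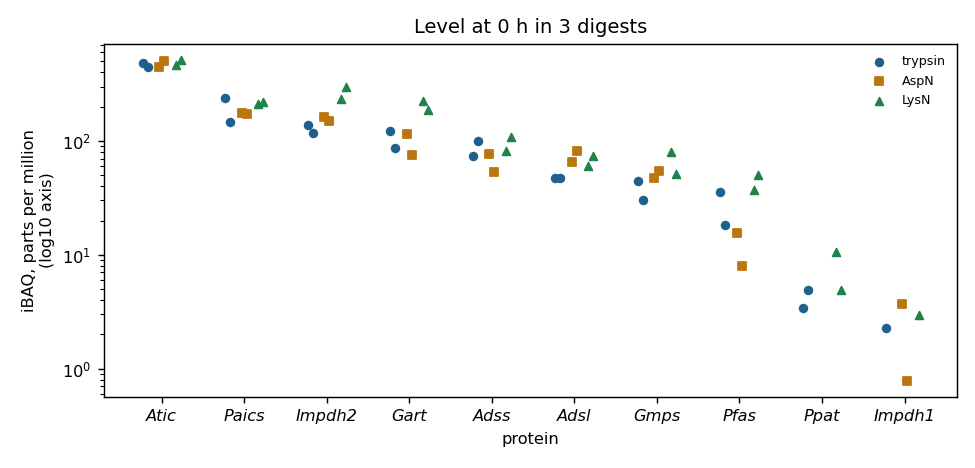
iBAQ of each enzyme at 0 h in ppm of the sample's total (log10 axis), 1 point per sample, for the trypsin (M channel), AspN and LysN digests. Atic lies at 448 to 513 ppm in all 6 samples, and Impdh1 lies at or below 3.71 ppm, with 2 samples listed at 0 that a log axis cannot show.

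The number of peptide pairs behind each ratio differed widely. Atic rested on a median of 125.5 M/L pairs per run, Impdh2 on 37 and Paics on 48.5. Impdh1 rested on a median of 3 pairs (0 to 12) and had M/L in 40 runs, and Ppat on 2 pairs (0 to 5) with M/L in 30 runs. Impdh2 had 27 peptides, 26 of them found in no other protein group, and Impdh1 had 16, of which 15 were its own, so the isozymes were told apart by nearly all their peptides.

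Of the 9 members with values at 24 h Impdh1 differed most between LPS and mock cells, and its best measured difference was in the M form. At 24 h its scaled M/L was 0.261 and 0.287 in LPS cells, against 3.75 and 5.3 in mock cells. The 2 groups were far apart, with the mock values above every other value of this protein and the LPS values below every other. The only 0 h value was 0.638. At 24 h log2 M/L was -4.03 ± 0.35 (SE) for LPS minus mock, the lowest of 3136 proteins, whose median was -0.07. These ratios rested on 7 and 7 pairs in LPS cells and on 12 and 12 pairs in mock cells, against a median of 3 over all runs.

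Impdh1 M/L was also lower in LPS cells from 6 to 12 h, with more scatter. Log2 LPS minus mock was -0.43, -0.17, -0.12, -0.39 and -0.33 at 0.5, 1, 2, 4 and 5 h, with no fit at 3 h. It was -0.48 at 6 h, near the values of 0.5 and 4 h, then -0.85 at 9 h and -1.4 at 12 h (SE 0.35 at each time). Over the 6 samples of 6, 9 and 12 h the lowest, median and highest M/L were 0.351, 0.513 and 0.718 in LPS cells, against 0.581, 0.973 and 1.46 in mock cells. The ranges overlapped, and at each time LPS lay below mock of the same replicate number (6 of 6). At 12 h Impdh1 stood at 0.351 and 0.473 in LPS cells, against 0.801 and 1.45 in mock cells. Mock replicate 2 was above mock replicate 1 at 6, 9 and 12 h (1.14, 1.46 and 1.45, against 0.581, 0.753 and 0.801). The late difference was -0.91 ± 0.2 on the log2 scale over both replicates, -1.23 without replicate 1 and -0.58 without replicate 2. Without replicate 1 the LPS and mock ranges no longer overlapped, as was also so without the 6 h samples, where the difference was -1.13.

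Over all times Impdh1 ranged from 0.261 to 0.719 in LPS cells and from 0.577 to 5.3 in mock cells, and at 0.5 and 1 h from 0.563 to 0.646 in LPS cells, against 0.593 to 1.02 in mock cells with 0 h. LPS was lower than mock in 17 of 19 pairs in all. Against 0 h, the M/L of mock cells at 24 h was 6.99-fold, rank 3 of 3314 proteins from the highest, and that of LPS cells 0.429-fold. Above Impdh1 in the mock cells stood only Krt76, a keratin, and Hist1h1b, a linker histone, both named after their values were seen. The M form is by design the protein made before 0 h, and the cause of its higher level in mock cells at 24 h was not tested.

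The separate signals behind this ratio were also compared. The light intensity of Impdh1 at 24 h was 94.7 and 45.5 ppm of the run's light signal in LPS cells and 76.1 and 61.3 ppm in mock cells, so the groups overlapped. Its M intensity was 14.9 and 14.5 ppm in LPS cells, against 212 and 241 ppm in mock cells, with no overlap. The summed-intensity M/L was 0.157 and 0.32 in LPS cells and 2.79 and 3.93 in mock cells. The authors' normalised M/L was 0.419 and 0.449 in LPS cells and 5.92 and 7.76 in mock cells.

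The H/L of Impdh1 at 24 h was 0.0796 and 0.0898 in LPS cells, against 0.592 and 0.832 in mock cells. The H share of its M plus H signal was 23.2% and 25.1% in LPS cells at 24 h, against 12.8% and 14% in mock cells, where it was 16.8% at 0 h. The mock share at 24 h was no higher than that 0 h value, which rests on 1 run with 3 H/L pairs. Over all mock samples the share ran from 1.6% to 64.8%. The mock H/L is therefore not read as new Impdh1, nor as its absence. Its H/M at 24 h, which needs no light signal, was 0.301 and 0.334 in LPS cells and 0.146 and 0.162 in mock cells. For Impdh1 at 24 h log2 LPS minus mock was -3.05 ± 1.42 in H/L and 1.04 ± 1.59 in H/M (SE). The H/M difference was thus within 1 SE of 0. At 6 to 12 h its H/L was too scattered to place, at 0.0464 to 0.541 in LPS cells and 0.036 to 0.337 in mock cells, and 1 LPS sample of 6 h made up the upper end.

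Impdh2, the better measured isozyme, differed little. Its late M/L was 0.911, 0.96 and 1.03 (lowest, median, highest) in LPS cells and 0.878, 0.937 and 0.994 in mock cells, which overlapped, and log2 LPS minus mock was 0.03 ± 0.04. At 24 h it was 0.82 and 0.887 in LPS cells, against 0.76 and 0.7 in mock cells, a difference of 0.23 ± 0.07, above the all-protein median of -0.07. Taken within a run, where the run factor cancels, log2 M/L of Impdh1 minus Impdh2 at 24 h was -1.65 and -1.63 in LPS cells, against 2.3 and 2.92 in mock cells, and it was -0.71 at 0 h. The plot of both isozymes shows the split of Impdh1 beside Impdh2, whose M/L in mock cells was 0.76 and 0.7 at 24 h, against 1.04 and 1.05 at 0 h.

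**Figure D2:**
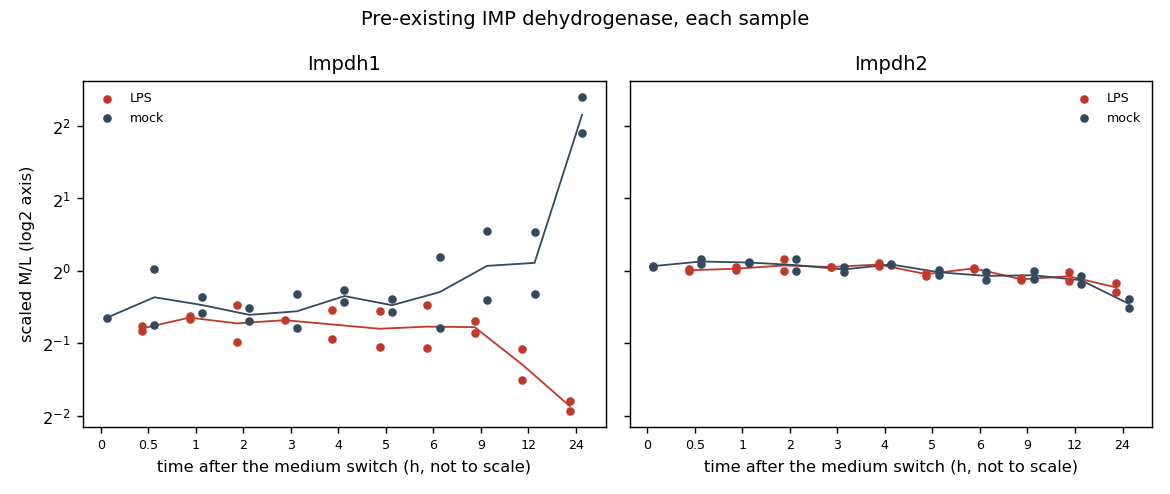
Scaled M/L (log2 axis), the pre-existing form, of Impdh1 (left panel) and Impdh2 (right panel) by time in hours after the switch. Points are samples in LPS and mock cells, and lines join group means of the log2 values. Impdh1 at 24 h lies at 0.261 and 0.287 in LPS cells and at 3.75 and 5.3 in mock cells, while all Impdh2 values lie between 0.7 and 1.12.

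Marker sums of macrophages and granulocytes differed between LPS and mock cells in the same samples. That of the dendritic cells lay higher in LPS from 6 to 12 h, and its ranges overlapped at 24 h. These sums add ratios to the light standard, so the weight of each marker depends on its level in that standard. They compare samples for the same markers and are not levels of a cell type. The summed total of 6 macrophage markers (Apoe, C1qb, Cd68, Csf1r, Fcgr1 and Lyz2) was 5.82 to 5.83 in LPS cells at 24 h, against 8.87 to 10.2 in mock cells, and 4.43 to 5.13 in LPS cells, against 6.6 to 8.66 in mock cells, from 6 to 12 h. It was 4.92 to 5.06 at 0 h. The sum of 6 granulocyte markers was 5.26 to 6.16 in LPS cells at 24 h, against 11.2 to 11.4 in mock cells, and was 14.5 to 14.6 at 0 h. The sum of 11 replication proteins was 9.83 to 10.1 in LPS cells and 10.1 to 10.1 in mock cells at 24 h, and 15.5 to 15.6 at 0 h. The sum of 6 dendritic cell markers was 5.33 to 7.02 in LPS cells, against 4.49 to 5.13 in mock cells, from 6 to 12 h, and 6.31 to 7.08 in LPS cells, against 5.51 to 6.37 in mock cells, at 24 h. Single markers differed from their sum, since late total Fcgr1 was higher in LPS in 6 of 6 pairs (log2 0.29, limma adjusted p = 0.42) and S100a9 rose (log2 0.15, limma adjusted p = 0.0044, higher in 4 of 6 pairs). Of the dendritic cell markers, late total Cd40 (log2 2.77) and Fscn1 (0.6) were higher in LPS in 6 of 6 pairs. H2-Aa was lower in 6 of 6 pairs (-0.26), and Itgax (0.03), Cd74 (-0.04) and H2-Ab1 (0.05) lay near 0. At 24 h the log2 differences were 2.93 for Cd40, 0.67 for Fscn1, 0.17 for H2-Aa, -0.08 for H2-Ab1, -0.69 for Cd74 and -1.03 for Itgax. The part of these cells in the Impdh1 result was not tested.

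Gmps, which makes GMP from the product of IMP dehydrogenase, did not separate at 6 to 12 h. Its M/L was 0.882 to 1.04 in LPS cells and 0.905 to 1.07 in mock cells, with a log2 difference of 0.01 ± 0.07. At 24 h it had 0.647 and 0.731 in LPS cells and 0.696 and 0.782 in mock cells, which overlapped (-0.1 ± 0.12). Its H/L at 24 h was 0.309 and 0.341 in LPS cells, against 0.261 and 0.262 in mock cells, and its H/M 0.444 and 0.453, against 0.359 and 0.337. Gmps, Adsl and Impdh1 were the 3 members whose H/M at 24 h lay higher in LPS than in mock cells without overlap, where 44.7% of all proteins did.

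On the AMP branch, Adss, which joins aspartate to IMP, had the higher M/L in LPS cells. Late M/L was 0.696, 0.72 and 0.793 in LPS cells, against 0.659, 0.671 and 0.695 in mock cells. The lowest LPS value lay just above the highest mock value. At 24 h it stood at 0.667 and 0.668 in LPS cells, against 0.514 and 0.53 in mock cells. The log2 differences were 0.11 ± 0.03 late and 0.35 ± 0.05 at 24 h. Its H/M at 24 h was 0.316 and 0.308 in LPS cells, against 0.462 and 0.443 in mock cells, the lower in LPS. From 6 to 12 h its H/M was lower in LPS in 6 of 6 pairs, at 0.114 to 0.205 in LPS cells and 0.146 to 0.244 in mock cells, which overlapped.

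Adsl, which acts both on the way to IMP and in the AMP branch, overlapped late, with M/L of 0.971 to 1.06 in LPS cells and 0.936 to 1.09 in mock cells. At 24 h its M/L was 0.887 and 0.916 in LPS cells, against 0.785 and 0.797 in mock cells. Its H/L at 24 h was 0.269 and 0.209 in LPS cells, against 0.127 and 0.133 in mock cells. Mock replicate 2 at 0 h had an H/L of 0.304, above all of these, so the H values of Adsl lie within their own background.

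Of the enzymes before IMP, Gart, which carries 3 activities of the chain on 1 polypeptide, showed the widest late difference after Impdh1. Its late M/L was 1.02, 1.04 and 1.08 in LPS cells, against 0.884, 0.915 and 0.979 in mock cells, without overlap, at a log2 difference of 0.18 ± 0.03. At 24 h it was 0.865 and 0.922 in LPS cells, against 0.711 and 0.693 in mock cells (0.35 ± 0.05). At 0 h it had been 1.05 and 1.08, so the LPS values of 6 to 12 h lay near the start and the mock values below it. Total Gart was 1.12 to 1.24 in LPS cells and 1.03 to 1.09 in mock cells late, also without overlap.

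Paics, which carries out 2 further steps of the chain and whose gene lies next to that of Ppat, had late M/L of 0.967, 1 and 1.08 in LPS cells, against 0.854, 0.944 and 0.999 in mock cells. LPS was higher in 6 of 6 pairs, although the ranges overlapped, and the log2 difference was 0.1 ± 0.04. At 24 h Paics stood at 0.786 and 0.835 in LPS cells, against 0.688 and 0.693 in mock cells.

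Atic and Pfas overlapped between LPS and mock cells late. Atic had M/L of 0.905 to 1 in LPS cells and 0.898 to 0.973 in mock cells (0.02 ± 0.04), and at 24 h 0.94 and 0.842 in LPS cells, against 0.814 and 0.784 in mock cells (0.16 ± 0.07). Pfas had 0.896 to 1.05 in LPS cells and 0.943 to 1.08 in mock cells late (-0.03 ± 0.06), and 0.855 and 0.88 in LPS cells, against 0.809 and 0.817 in mock cells, at 24 h (0.09 ± 0.1).

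Ppat was too sparse for the fit of late times, having M/L in 4 of 6 LPS samples and 3 of 6 mock samples. Those values were 1.23, 3.94, 1.41 and 1.38 in LPS cells and 1.44, 1.11 and 0.918 in mock cells, and the groups overlapped. At 24 h it had 1 value, 0.604 in mock replicate 2, and no ratio in LPS cells.

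Counted over the 9 members with enough values, LPS lay above mock without overlap in M/L late for 2 (Adss and Gart), where 0.816% of 3432 proteins did so, and below mock for 0, where 5.22% did. For total protein 1 member (Gart) lay above, against 5.46% of all proteins, and 0 below, against 4.61%. For new protein (H/L) 0 lay above and 0 below, where 5.37% and 0.603% of 3316 proteins did. Since the choice of members used these ratios, nothing is read from those shares. The 2 in M/L became 0 without the run factor and with summed intensities, and 4 with the authors' normalised ratios, under which total Gart turned to -0.24. The median log2 late difference of the members was 0.02 in M/L, against -0.02 for all proteins, and -0.09 in H/L, against 0.03.

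At 24 h 7 of 9 members lay above mock without overlap in M/L, where 23.9% of 3136 proteins did so, and 1 (Impdh1) below, where 38.9% did. In total protein 6 lay above, against 33.1% of all proteins, and 2 (Impdh1 and Pfas) below, against 32.8%. In H/M 6 lay below, where 17.8% of all proteins did, namely Impdh2, Adss, Atic, Paics, Gart and Pfas. At 0.5 h the picture in M/L was the reverse, since 8 of 10 members lay below mock without overlap, where 29.8% of 3448 proteins did. Gmps and Gart were the 2 that overlapped at 0.5 h. With 2 samples in each group such a separation is common, as the shares of all proteins show. The members were chosen with these ratios in view, so nothing is read from their counts beside those shares. The M/L and H/M counts also share the M signal.

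**Figure D3:**
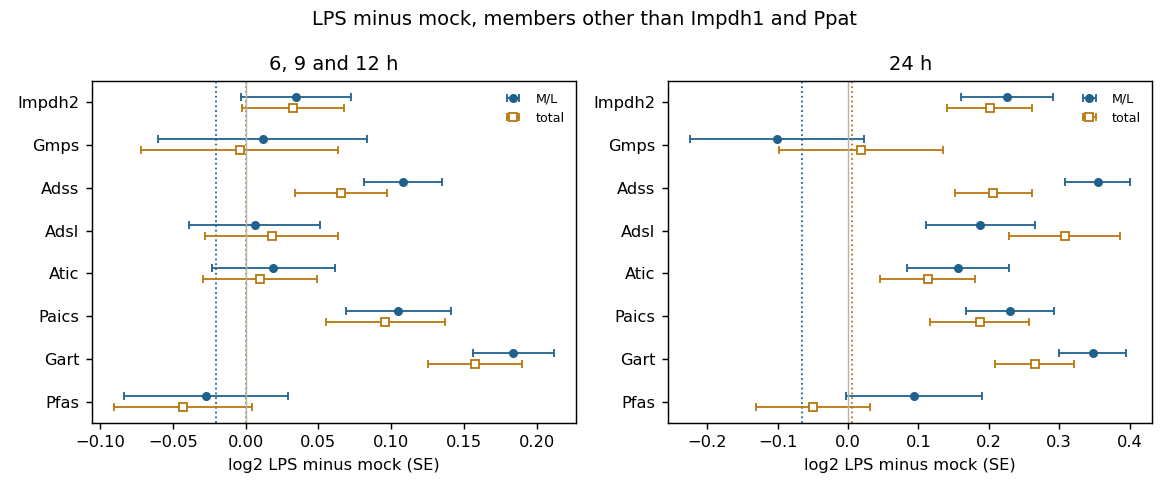
Log2 LPS minus mock (x axis, bars are SE of the fit) of the 8 members other than Impdh1 and Ppat, for the pre-existing form (M/L, filled circles) and total protein (open squares), over 6, 9 and 12 h (left) and at 24 h (right). Dotted lines mark the all-protein medians, and Gart and Adss lie farthest right in M/L, at 0.18 and 0.11 late and at 0.35 and 0.35 at 24 h.

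Replacement of old by new protein was read in mock cells as the slope of the log2 share of M on time from 0.5 to 12 h, with no test. Its all-protein median was -0.0083 per h, a half-time of 120 h, over 3459 proteins. Adss had the steepest slope of the members, -0.0163 ± 0.0013 per h (SE, 18 samples), a half-time of 61.3 h, and 27.6% of proteins were faster. Pfas followed at -0.0089 ± 0.0035 per h and Impdh2 at -0.0072 ± 0.0032 per h, about the all-protein median, then Gmps at -0.006 ± 0.0024 and Atic at -0.0047 ± 0.0012 per h.

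Gart, Paics and Adsl had slopes within 1 SE of 0, of -0.0014 ± 0.0017, 0.0005 ± 0.0028 and 0.0013 ± 0.0042 per h, so no half-time can be given for them from these times. Impdh1 had a positive slope, 0.0462 ± 0.0251 per h, and its H/M ran between 0.0163 and 1.84 in mock cells, so no half-time is given for it. In LPS cells Adss had -0.0073 ± 0.0019 per h, where the all-protein median was -0.0092. The fit takes no account of growth. Without replicate 1 and without replicate 2 the slopes were -0.0023 and -0.0121 for Impdh2, -0.0034 and -0.0086 for Gmps, and -0.0031 and -0.0146 for Pfas. With the authors' normalised H/M the slopes were steeper, at -0.0797 per h for Adss and -0.0556 per h for Impdh2, so the half-times hold only for the un-normalised ratios.

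**Figure D4:**
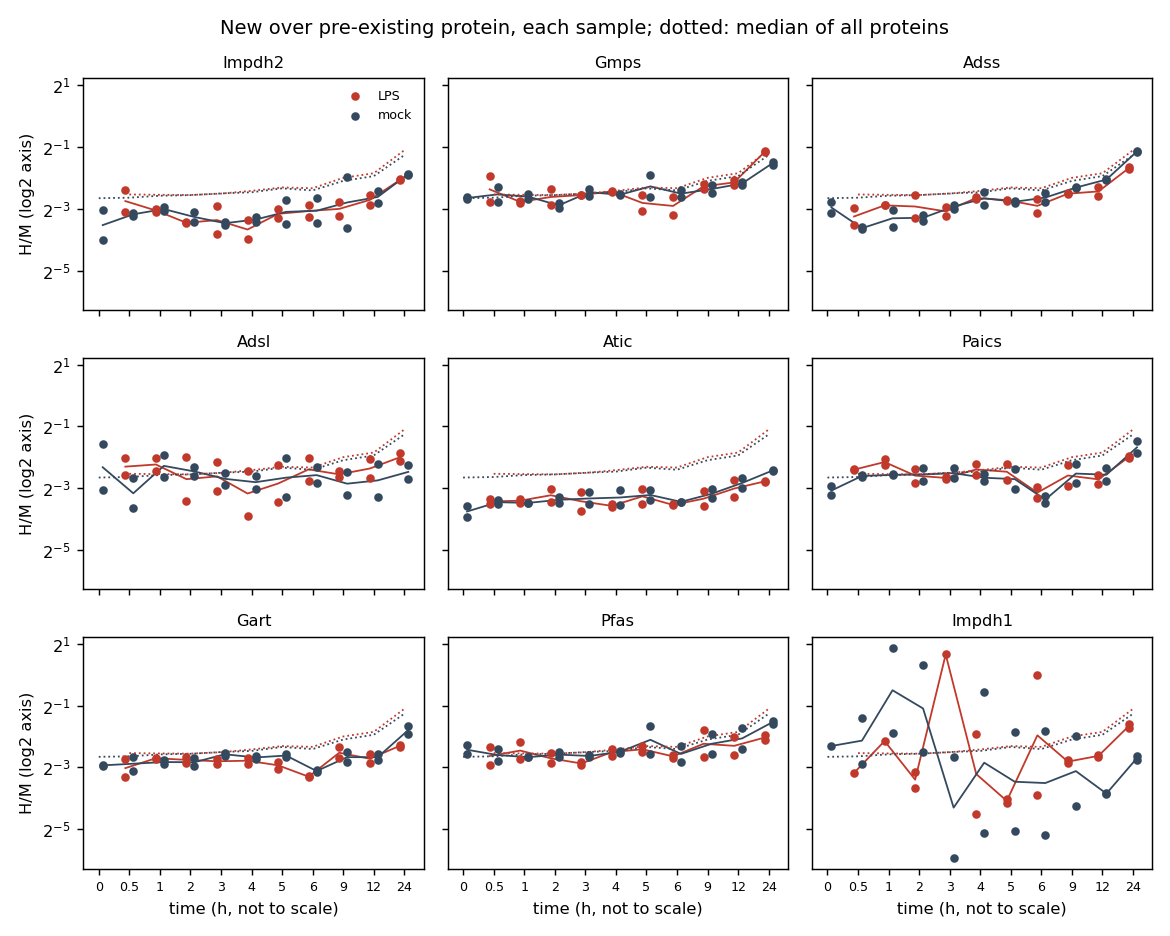
H/M, new over pre-existing protein (log2 axis), of 9 members by time in hours, with 1 point per sample in LPS and mock cells, lines through group means and dotted lines for the all-protein median. At 24 h Atic lies at 0.143 and 0.148 in LPS cells and 0.183 and 0.188 in mock cells, below the all-protein medians of 0.487 and 0.443 in LPS cells and of 0.418 and 0.415 in mock cells, while Impdh1 scatters over the whole axis.

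The course in mock cells alone, as mock at 9 and 12 h (4 samples) minus 0, 0.5 and 1 h (6 samples), used ratios that were in view when the members were chosen. It is therefore given as a description with standard errors from the limma fit and no p-value. In M/L the log2 differences were -0.26 ± 0.04 for Paics, -0.24 ± 0.03 for Gart, -0.2 ± 0.04 for Impdh2 and -0.18 ± 0.03 for Adss, where the all-protein median was -0.1. These 4 of 9 members lay past the threshold of the fit in the downward direction, as did 28.2% of 3409 proteins, and 0 in the upward direction, as did 6.72%. Nothing is read from those shares.

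Nearer to 0 were Gmps (-0.08 ± 0.08), Atic (-0.02 ± 0.05), Adsl (0 ± 0.05) and Pfas (0.01 ± 0.06). Impdh1 had 0.58 ± 0.24, and 0.54 with the replicate number as a block.

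In total protein Paics had -0.24 ± 0.05 and Gart -0.18 ± 0.04, the 2 of 9 members past the threshold downwards, as were 5.58% of 3264 proteins, and 0 were past it upwards, as were 7.66%. Impdh2 had -0.11 ± 0.04 and passed only with the replicate number as a block. Total Paics was 1.13, 0.97, 1.08 and 1.08 in mock cells at 9 and 12 h, against 1.22, 1.36, 1.29, 1.21, 1.21 and 1.24 in mock cells at 0, 0.5 and 1 h, without overlap.

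Proteins around the pathway were tested for LPS minus mock over 6, 9 and 12 h as comparison lists, which are not members but were drawn up with earlier results of these data known. In new protein 10.6% of 3316 proteins rose and 1.75% fell. Of 18 tested proteins of ribose phosphate supply and purine salvage 3 rose and 0 fell, with a median of -0.01 against 0.03 for all proteins. Of 7 nucleotide kinases and reductase subunits 1 rose and 0 fell, of 10 pyrimidine enzymes 1 rose and 0 fell, of 10 folate and serine enzymes 0 rose and 0 fell, and of 16 replication proteins 0 rose and 1 fell.

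Pnp, the phosphorylase that splits inosine and guanosine in purine salvage, rose most. Its H/L over 6 to 12 h was 0.222, 0.422 and 0.562 (lowest, median, highest) in LPS cells, against 0.0633, 0.078 and 0.106 in mock cells, and at 24 h 0.802 and 0.782 in LPS cells, against 0.116 and 0.104 in mock cells. Every LPS sample lay above every mock sample, and the log2 difference was 2.21 ± 0.1 (limma adjusted p = 8.92e-14, higher in 6 of 6 pairs). Total Pnp was 1.19 and 1.22 in LPS cells at 24 h, against 0.467 and 0.479 in mock cells.

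Samhd1, which breaks down deoxynucleotides, rose by 0.95 ± 0.12 (limma adjusted p = 2e-06, higher in 6 of 6 pairs), with H/L of 0.133 to 0.341 in LPS cells and 0.0859 to 0.133 in mock cells late. Ampd3, which turns AMP back into IMP, rose by 0.99 ± 0.3 (limma adjusted p = 0.028, higher in 6 of 6 pairs). Its H/L was 0.226, 0.342 and 0.542 in LPS cells, against 0.0828, 0.205 and 0.365 in mock cells, and those ranges overlapped. At 24 h Ampd3 was 0.843 and 0.836 in LPS cells and 0.185 and 0.238 in mock cells.

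Cmpk2, a mitochondrial nucleotide kinase known as an interferon-induced protein, rose by 1.55 ± 0.16 (limma adjusted p = 5.99e-08, higher in 6 of 6 pairs), with H/L of 0.18 to 0.529 in LPS cells and 0.0907 to 0.138 in mock cells. Dck, which phosphorylates deoxycytidine, rose by 1.04 ± 0.27 (limma adjusted p = 0.0079, higher in 5 of 6 pairs). Rfc1, a subunit of the clamp loader of DNA replication, fell by 0.85 ± 0.18 on the log2 scale (limma adjusted p = 0.0021, lower in 6 of 6 pairs), with H/L of 0.0844 to 0.151 in LPS cells and 0.155 to 0.282 in mock cells. The calls of Pnp (14 of 14) and Cmpk2 (13 of 13) held under every setting run for them, and that of Samhd1 in all but summed intensities (log2 0.51, limma adjusted p = 0.131), while those of Ampd3, Dck and Rfc1 were lost without replicate 2 (log2 0.57, 0.76 and -0.94) and without 12 h (0.69, 0.78 and -0.49). Rfc1 was also lost without replicate 1 (-0.75) and with no run factor (-0.68), Ampd3 without 6 h (1.01) and Dck without 9 h (0.95). With normalised columns Ampd3 (0.31) and Dck (0.61) were lost, as both were with the 0 h signal subtracted (0.83 and 1.52). Cmpk2 and Rfc1 had too few values for a fit with the 0 h signal subtracted, so their calls were not checked against it. With summed intensities Ampd3 turned to -0.31 and Dck was lost (0.69).

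**Figure D5:**
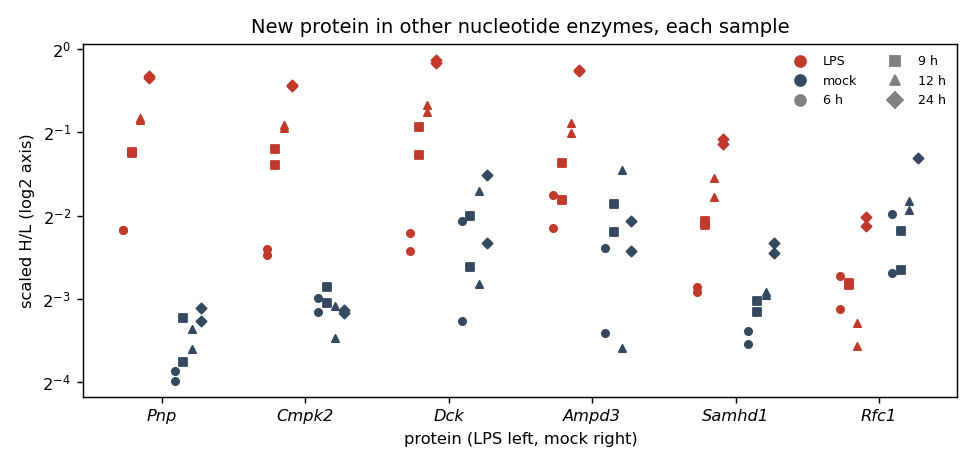
Scaled H/L (log2 axis), the new form, of the 6 comparison proteins called over 6, 9 and 12 h, with LPS samples left and mock samples right of each name and marker shapes for the time, 24 h included. Pnp lies at 0.222 to 0.802 in LPS cells, above all its mock values of 0.0633 to 0.116, and Rfc1 is the protein whose LPS values lie lower at 6 to 12 h.

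In the pre-existing form the same lists gave 0 rises and 0 falls for salvage (19 tested) and for pyrimidine enzymes (10 tested), 0 rises and 2 falls for the kinases (7 tested), 0 rises and 3 falls for folate and serine enzymes (10 tested) and 1 rise and 2 falls for replication proteins (17 tested), where 3.53% of 3432 proteins rose and 13.6% fell. With the replicate number as a block Samhd1 also fell (limma adjusted p = 0.302 without and 0.0433 with the block). The 3 folate proteins were Mthfd1l and Shmt2, mitochondrial enzymes of the one-carbon units used in purine rings, and Ggh, a lysosomal folate hydrolase. Their log2 differences were -0.22 ± 0.04, -0.23 ± 0.04 and -0.37 ± 0.07 (limma adjusted p = 0.0012, 0.00042 and 0.0003). M/L of Shmt2 at 24 h was 0.782 and 0.801 in LPS cells and 1.1 and 1.22 in mock cells.

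In total protein the salvage list had 2 rises (Pnp and Samhd1) and 0 falls, the kinases 1 rise and 1 fall, the folate list 0 rises and 3 falls (the same proteins as in M/L), the pyrimidine list 1 rise and 0 falls, and the replication list 0 rises and 2 falls, where 10.2% of 3316 proteins rose and 9.59% fell.

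Likeness of course was measured as Pearson's r over 10 times of LPS minus mock in log2 H/L, among 3122 proteins with a value in every group. Most like Impdh1 were Wdfy3 (r = 0.87), Commd6 (0.86), Smc4 (0.86), Itga1 (0.84) and Rnf113a1 (0.81). Impdh2 ranked 1298 of these for Impdh1, at r = 0.04. Most like Impdh2 were Prps1l1 (0.92), Raver1 (0.89), Sec13 (0.88), Txlna (0.87) and Flot1 (0.87). Prps1l1 bears the name of a synthetase of the ribose phosphate that Ppat uses, but only 2 of its 9 peptides were assigned to it, so its values could be shared with its paralogs. The points share the runs and their light mix, and with H/L so near its background such values are a description only.

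In M/L, a measure added after seeing the data, Impdh1 was most like Ube2n (r = 0.99), and Impdh2 ranked 3101 of 3297 proteins for Impdh1, at r = -0.76. Both values rest largely on 24 h, where Impdh1 had -4.03, against -1.4 to -0.12 at the other times with a fit. Ube2n had only -0.82 at 24 h, so no like or opposed course is read from them. Adss ranked 21 (r = 0.9), Atic 55 (0.86) and Adsl 135 (0.82) in likeness to Impdh2. Log2 LPS minus mock in M/L at 24 h was 0.23 for Impdh2, 0.35 for Adss, 0.16 for Atic and 0.19 for Adsl.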

How the data were processed

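The members and lists were chosen with earlier results of these data known. Each deposited table row is a protein group, and per the file headers, whose column names are MaxQuant's, the authors gave un-normalised and normalised SILAC ratios between the 3 channels, the number of peptide pairs behind each, and channel intensity values. Per the submitters' processing notes the genome build is mm9, and the search settings were not stated there. Of 6266 groups 5899 were kept, without reverse, contaminant and site-only entries. Ratios were scaled per run by the median total (M/L and H/L added) of the 2628 proteins having M/L in all 42 runs (log2 factors -0.68 to 0.69). Log2 values were fitted with limma 3.58.1 (R 4.3.3) as 21 group means. Late arms needed 4 of 6 values. Calls were made at an adjusted p under 0.05 over all proteins, and the fit was tested on simulated data. A ratio is only as precise as its peptide pairs are many. No column was left without a sample (0). Plots were drawn in Python 3.11.15 (matplotlib 3.10.9), with tables read by pandas 2.3.3 on numpy 2.4.6.

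Named were all members, list proteins called in late H/L, and the 5 proteins most like each IMP dehydrogenase. The lists were salvage, kinases, folate, pyrimidine, replication and markers, and the result of 1 list protein is not reported here. LPS and mock samples of the same replicate number deviated together at each time (r from 0.25 to 0.55 over proteins), which is a pairing seen in the data and not in the labels. Nothing says that replicates were separate cultures. Their spread, and any p-value resting on it, may therefore be technical.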

Additional observations from a re-analysis of the deposited data

Results flagged for a closer look

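Late groups of a member (57 in all) were searched for a sample far from its group, which chance alone gives in about 1 of 20 groups, and 5 were found. Impdh1 H/L in LPS replicate 1 at 6 h was 0.541, where the other LPS samples had 0.0464 to 0.0971. Gmps H/L in mock replicate 2 at 12 h was 0.253 (others 0.16 to 0.184). Pfas M/L in LPS replicate 1 at 12 h was 0.896 (others 0.999 to 1.05). Ppat in LPS replicate 2 at 6 h, on 2 pairs, had M/L of 3.94 (others 1.23 to 1.41) and a total of 5.07 (others 1.65 to 2).

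For 6 members all LPS samples lay below mock at 0.5 h and above mock at 24 h in M/L, and the difference between the times was not tested. Of all proteins 29.8% lay below at 0.5 h and 23.9% above at 24 h. The share that did both was not counted, so nothing is read from the number of members. Log2 LPS minus mock at 24 h, against 0.5 h, was 0.23 against -0.12 for Impdh2, 0.35 against -0.19 for Adss, 0.19 against -0.17 for Adsl, 0.16 against -0.15 for Atic, 0.23 against -0.23 for Paics and 0.093 against -0.095 for Pfas. In total protein the same was so of Adss (0.21 against -0.16), Atic (0.11 against -0.14) and Paics (0.19 against -0.18). There 33.1% of all proteins lay above at 24 h, and the share below at 0.5 h was not counted.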

How the results depend on the processing

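Each result was recomputed under other scalings, columns, filters and sample sets, and 534 of 672 values stayed within the spread or on their side of the threshold. Those at 24 h, those on overlap in M/L and total protein and the M/L likeness were added after seeing the data. Impdh1 kept its sign in M/L throughout, from -1.23 to -0.58 late and from -4.21 to -3.79 at 24 h.

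Members without overlap late, LPS above mock in M/L, numbered 2, but 0 with no run factor, 4 with normalised columns and 0 with summed intensities. In total protein they numbered 1, but 0 with no run factor, normalised columns or summed intensities, 2 without 9 h and 2 without either replicate (lowest 2, highest 2). Members below mock numbered 0, but 1 in M/L and 1 in total without 6 h, 1 in total with summed intensities, and leaving out 1 replicate gave 0 to 1 in H/L, 0 to 2 in M/L and 0 to 2 in total.

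List proteins higher in H/L numbered 5, but 3 with normalised columns, 2 with 0 h subtracted, 2 with summed intensities, 3 without 12 h, and 3 to 5 with 1 replicate left out. Lower ones numbered 1, but 0 with no run factor, 2 with centred channels, 9 with normalised columns, 0 with 0 h subtracted, 0 without 12 h, and 0 (lowest and highest 0) with 1 replicate left out. With 0 h subtracted Cmpk2 and Rfc1 had no fit.

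In mock cells over time, a description for the members, 0 lay past the threshold upwards in M/L, but 1 with centred channels, 1 with summed intensities and 1 with the replicate block (Impdh1 each time). The 4 past it downwards became 0 with no run factor and 2 with normalised columns. In total protein the 2 past it downwards became 0 with no run factor, normalised columns or summed intensities, and 0 to 2 with 1 replicate left out. Normalised columns gave 8 past it upwards, where 2972 of all proteins were past it upwards and 0 downwards. The median of all proteins there moved to 1.11, with Impdh2 at 0.89, Gmps 0.96, Adss 1, Adsl 0.81, Gart 0.78 and Paics 0.82. The block also took total Impdh2 (-0.11) past the threshold, and changed the side of no other member.

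With normalised columns Gart in late total protein turned to -0.24, and at 24 h Adss turned to -0.045, Atic to -0.033 and Pfas to 0.019 in total protein, Pfas also to 0.19 with no run factor. Without the run factor the all-protein median late was 0.15 in M/L and 0.17 in total protein, and with normalised columns -0.48 in H/L and -0.27 in total protein. Where no value above shows a cause, the cause was not tested. Few peptide pairs limit Impdh1 and Ppat most.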
